A study of Rattus norvegicus with 8 samples.

Results

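The genes described here make cholesterol, sense it, take it up, move it and export it from the cell. They were the rows of the deposited tables whose gene symbol matched 1 of 30 names, and 28 of the 30 were found, with no repeated symbol. The tables held 14295 genes for precursors and 18236 for adipocytes, with 14018 in both. Sc5d and Lbr, enzymes of the sterol arm, were not analysed here. The 24 measured synthesis and uptake members were 8 enzymes of the mevalonate arm, 10 of the sterol arm, 4 sterol sensors and regulators, and 2 genes of uptake and transport. The other 4 members were the liver X receptors (LXR) and the efflux pumps.

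RNA was sequenced from adipocytes (AD) grown in culture and from the stem cells of inguinal fat (ASC), the precursors that were made into those adipocytes, all of wild-type Wistar rats. AD_HFS and ASC_HFS came from rats fed a high-fat sucrose (HFS) diet over 6 months, and AD_C and ASC_C from rats fed a control (C) diet over the same time. For AD, confluent cells received insulin (10.0 µg/mL) with dexamethasone (5.0 µM), a glucocorticoid, and the phosphodiesterase inhibitor IBMX (0.5 mM) for 3 days, then insulin alone for 7 days. Cells of all 4 groups were released by collagenase and expanded in serum, so each group is a culture model, and each had 2 libraries, 8 in all. The sources used here give neither the age nor the sex of the rats, nor say that libraries of 1 group are from different animals, so each p measures the spread between these samples, which may be technical. The study asked whether obesity alters precursors in a way that gives rise to altered adipocytes, by comparing HFS with C in each cell type.

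Cells build cholesterol from acetyl-CoA through mevalonate, isoprenoids, squalene and lanosterol. When membrane sterol is low, SCAP carries the transcription factor encoded by Srebf2 to the Golgi, where it is cut and then switches on the enzymes of the pathway, while INSIG proteins hold SCAP back in the endoplasmic reticulum when sterol is plentiful. LXRs, activated by oxysterols, raise the pumps that export cholesterol. Adipose tissue is a large store of cholesterol, which sits in the lipid droplets and membranes of adipocytes, and macrophages use the same efflux pumps.

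Reads recovered from the deposited values numbered 76083827 to 119555051 in the AD libraries and 992618 to 7290961 in the ASC libraries. ASC_HFS replicate 2 was the shallowest, and 3 reads there equalled 10.9 normalized counts, the floor used below, which covers counting error only. Normalized counts are reads divided by the size factor of a library, on a scale shared within a table and not between tables. CPM is the reads of a gene scaled to 1000000 per library over the 14018 shared genes. The 10 adipocyte markers summed to 21937 and 21493 CPM in AD_HFS, against 19121 and 23134 in AD_C, and to 4565 and 3162 CPM in ASC_HFS, against 996 and 4427 in ASC_C. The 11 mesenchymal progenitor markers summed to 56517 and 61198 CPM in ASC_HFS, against 31572 and 36480.4 in ASC_C. Gene by gene these 11 went both ways in ASC, with 5 positive and 6 negative log2 differences of HFS from C (median -0.12). No marker of the adipocyte and progenitor lists was at 0 in any library.

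In precursors the enzymes of synthesis were lower in HFS, and the efflux pumps and the lysosomal exporter Npc1 were higher. Of the 28 members, 15 fell, all of them enzymes, and 3 rose, which were Abca1, Abcg1 and Npc1. A call means an adjusted p under 0.05 by limma-trend with Benjamini-Hochberg adjustment over the 14295 genes of the table, of which 9.70% fell and 9.41% rose. The median log2 difference was -1.16 over the 24 synthesis and uptake members and 0.56 over the 4 LXR and efflux members, against -0.04 over all genes. Within the 24 it was -1.34 over the 18 enzymes, 0.07 over the 4 sterol sensors and regulators, and 0.24 over the 2 genes of uptake and transport. Among the 4, the receptors Nr1h2 and Nr1h3 were at 0.24 and 0.13. These differences are on the deposited log2 scale, which draws low counts together, and for that reason the ratio of mean normalized counts (the fold) stands beside them. In bulk RNA, fewer cells of a type and less RNA per cell cannot be told apart.

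These calls came from 2 libraries per group, and limma-trend called 0 of the 28 members once any 1 of the 4 ASC libraries was left out, as it called 0 genes of the whole table. The members at an unadjusted p under 0.05 then numbered 17 lower and 2 higher without ASC_HFS replicate 1, 14 and 3 without ASC_HFS replicate 2, 13 and 3 without ASC_C replicate 1, and 14 and 4 without ASC_C replicate 2. Over all genes, 8.77% to 17.6% were lower and 7.45% to 14.1% higher at that level. A fit of the recovered reads by limma-voom, another test, called 16 members lower and 4 higher, the 15 and the 3 among them, beside 10.3% and 12.1% of all genes. With the same libraries left out in the same order, limma-voom called 8, 13, 15 and 17 members lower and 2, 2, 2 and 4 higher, beside 1.96%, 4.48%, 11.9% and 14.0% of all genes lower and 5.71%, 6.61%, 10.8% and 11.3% higher. The members higher were thus near the share of all genes. With every library thinned to the depth of the shallowest, limma-voom called 11 lower and 1 higher, without Mvk, Lss, Msmo1, Dhcr7, Npc1 and Abcg1.

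**Figure D1:**
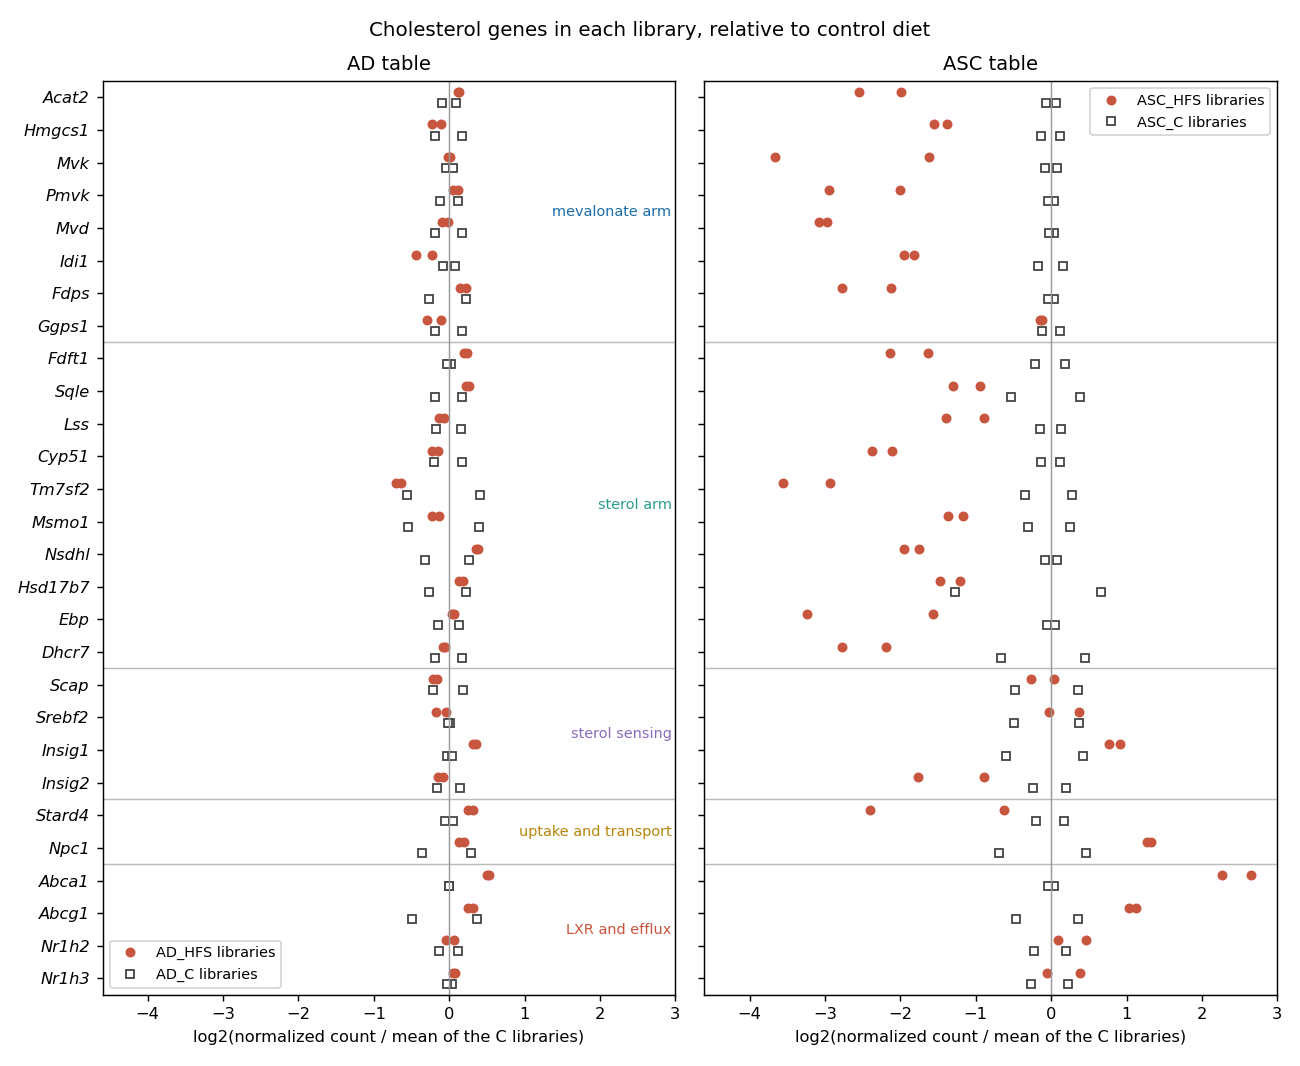
Each of the 28 members in each library, as log2 of its normalized count over the mean of the 2 C libraries of its table, with HFS libraries as filled circles and C libraries as open squares. The left panel is AD and the right panel ASC. In ASC both HFS libraries lie left of both C libraries for 16 of the 18 enzymes. They lie right of both C libraries for Insig1, Npc1, Abca1 and Abcg1. In AD the groups overlap for 17 of the 28 members.

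The mevalonate arm turns acetyl-CoA into isoprenoids, and 7 of its 8 enzymes fell in ASC_HFS. Mvd (ENSRNOG00000013376), which decarboxylates mevalonate diphosphate, had 46.8 and 43.5 normalized counts in ASC_HFS, against 376 and 359.6 in ASC_C. It was 8.15-fold lower (log2 difference -2.07 ± 0.23 SE, adjusted p = 8.37e-05), with each pair of libraries close together and far from the other. The Mvd values of ASC_HFS came from 75 and 12 reads, so the closeness of that pair is imprecise. Fdps (ENSRNOG00000043377), which joins isoprene units into farnesyl diphosphate, had 431 and 276 normalized counts in ASC_HFS, against 1929 and 1831 in ASC_C, a 5.32-fold decrease (log2 difference -2.24 ± 0.29 SE, adjusted p = 0.000267). Pmvk, the second kinase of the arm, had 97.9 and 50.8 normalized counts in ASC_HFS, against 404 and 380.2 in ASC_C. Acat2, the cytosolic thiolase at the head of the pathway, had 133 and 90.7 normalized counts in ASC_HFS, against 554 and 505 in ASC_C. The HFS values of these enzymes lay below both C values by a wide margin (adjusted p = 0.000484 for Pmvk and 0.000448 for Acat2).

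Hmgcs1, the synthase that makes hydroxymethylglutaryl-CoA, had 282 and 319 normalized counts in ASC_HFS, against 901 and 754 in ASC_C, and was 2.75-fold lower (adjusted p = 0.00488). Idi1, the isomerase that balances the isoprene units, had 159 and 145 normalized counts in ASC_HFS, against 624 and 496 in ASC_C, 3.69-fold lower (adjusted p = 0.00125). Mvk, the first kinase, fell 4.96-fold, with 44.9 and 10.9 normalized counts in ASC_HFS, against 145 and 131 in ASC_C. The lower of its HFS values rests on 3 reads, so the size of that fold is imprecise (adjusted p = 0.00358). Ggps1, which makes the geranylgeranyl diphosphate used to anchor small GTPases and does not lead to sterol, was the mevalonate enzyme not called. It had 39.3 and 39.9 normalized counts in ASC_HFS, against 39.8 and 47.1 in ASC_C, and the groups overlapped (log2 difference -0.06 ± 0.21 SE, adjusted p = 0.868).

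The sterol arm runs from squalene to cholesterol, and 8 of its 10 measured enzymes fell in ASC_HFS. Tm7sf2 (ENSRNOG00000020989), a sterol C14 reductase, had 28.1 and 18.1 normalized counts in ASC_HFS, against 259 and 168 in ASC_C, a ratio of 9.24 between the C and HFS means (log2 difference -1.83 ± 0.24 SE, adjusted p = 0.000284). Its HFS values came from 45 and 5 reads. Cyp51 (ENSRNOG00000007234), the lanosterol demethylase, was far deeper, with 289 and 239 normalized counts in ASC_HFS, against 1352 and 1135 in ASC_C, and fell 4.71-fold (log2 difference -1.99 ± 0.27 SE, adjusted p = 0.000341). Both HFS libraries of each gene were below both C libraries.

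Fdft1, the squalene synthase that commits farnesyl diphosphate to sterol, fell 3.64-fold (adjusted p = 0.00259), with 92.9 and 65.3 normalized counts in ASC_HFS, against 327 and 248 in ASC_C. Dhcr7, the last reductase of the pathway, had 32.4 and 21.8 normalized counts in ASC_HFS, against 203 and 93.7 in ASC_C (adjusted p = 0.00453). The control pair of Dhcr7 stood well apart, and both still lay above the HFS pair. Ebp, a sterol isomerase, had 58.0 and 18.1 normalized counts in ASC_HFS, against 178 and 165 in ASC_C (adjusted p = 0.00322), and Nsdhl, which removes methyl groups from the sterol ring, had 37.4 and 32.6 normalized counts in ASC_HFS, against 132 and 119 in ASC_C (adjusted p = 0.00545). Each of these enzymes had both HFS libraries below both C libraries. Lss, which closes the sterol rings, had 169.6 and 119.7 normalized counts in ASC_HFS, against 285 and 346 in ASC_C, and fell 2.18-fold (adjusted p = 0.0250). Msmo1, a methyl sterol oxidase, had 228 and 199 normalized counts in ASC_HFS, against 612 and 416 in ASC_C, and fell 2.41-fold (adjusted p = 0.0152).

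Sqle, the monooxygenase that forms squalene epoxide and a rate-limiting step of the arm, narrowly missed the threshold. It had 111 and 141 normalized counts in ASC_HFS, against 358 and 189 in ASC_C, without overlap (log2 difference -0.79 ± 0.27 SE, adjusted p = 0.0583), and passed by limma-voom (adjusted p = 0.0221). Hsd17b7, a sterol ketone reductase, had 13.1 and 10.9 normalized counts in ASC_HFS, against 48.2 and 12.6 in ASC_C. Here ASC_C replicate 2 was at the HFS level, and 3 reads lie behind the second HFS value (adjusted p = 0.299). Over the 18 measured enzymes, 16 had both HFS libraries below both C libraries, beside 32.5% of all genes of the table. Their ratios of HFS to C means ran from 0.108 to 0.911, with a median of 0.247.

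The promoters of the members were compared as sequence, to show what letters the synthesis enzymes share. RefSeq (build GRCr8) gave a promoter of 250 bases before to 50 after the start for 23 of the 28 measured members, 15 of them enzymes, of which 13 fell in ASC and Ggps1 and Hsd17b7 were not called. The letters CCAAT, the box bound by NF-Y, a usual partner of sterol regulatory factors, occurred on either strand in 12 of the 15 enzyme promoters (80.0%), 10 of the 13 whose gene fell (76.9%), and in 37.5% of all 33469 promoters of the table. GGGCGG, the Sp1 box, occurred in 12 of the 15 (80.0%), 11 of the 13 (84.6%), and in 33.1% of all. Over all 23 member promoters it occurred in 17 (73.9%), with Scap, Srebf2, Insig1, Npc1 and Abca1 among them. CACCCCAC, a core of the sterol regulatory element, occurred in 1 of the 15, Ebp, and in 2.70% of all, and TCACNCCAC, which overlaps it, in none of the 15 and in 1.12% of all. The direct repeat of AGGTCA spaced by 4 bases, which LXR binds, occurred in none of the 23 member promoters and in 0.00598% of all. No CCAAT was found in the promoters of the 3 LXR and efflux members listed, Abca1, Nr1h2 and Nr1h3. The matches describe letters in these windows and show neither a bound site nor a cause.

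The 150 bases before the start are shown for the 4 enzymes with the lowest log2 differences in ASC that had a promoter listed, and for Abca1 and Npc1, which rose. Capitals mark CCAAT and GGGCGG on either strand, and the other searched letters did not occur in these windows.
Fdps, chr2:176804817-176804966, minus strand: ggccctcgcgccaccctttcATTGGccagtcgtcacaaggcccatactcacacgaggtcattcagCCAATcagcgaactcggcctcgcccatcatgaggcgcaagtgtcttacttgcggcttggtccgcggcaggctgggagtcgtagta
Mvd, chr19:67414975-67415124, minus strand: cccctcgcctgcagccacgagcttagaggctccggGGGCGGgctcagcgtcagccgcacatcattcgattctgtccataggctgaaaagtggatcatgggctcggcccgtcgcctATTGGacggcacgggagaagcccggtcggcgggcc
Cyp51, chr4:30991543-30991692, plus strand: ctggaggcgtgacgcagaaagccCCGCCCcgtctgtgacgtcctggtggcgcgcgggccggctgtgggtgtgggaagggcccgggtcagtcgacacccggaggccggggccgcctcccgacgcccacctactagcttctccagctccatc
Tm7sf2, chr1:212789542-212789691, minus strand: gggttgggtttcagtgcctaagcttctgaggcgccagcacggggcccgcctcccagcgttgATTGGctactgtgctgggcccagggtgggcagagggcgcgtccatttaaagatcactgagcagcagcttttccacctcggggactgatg
Abca1, chr5:72596474-72596623, minus strand: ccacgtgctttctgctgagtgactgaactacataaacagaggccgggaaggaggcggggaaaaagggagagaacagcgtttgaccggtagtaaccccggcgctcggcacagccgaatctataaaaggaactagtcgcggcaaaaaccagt
Npc1, chr18:3699801-3699950, minus strand: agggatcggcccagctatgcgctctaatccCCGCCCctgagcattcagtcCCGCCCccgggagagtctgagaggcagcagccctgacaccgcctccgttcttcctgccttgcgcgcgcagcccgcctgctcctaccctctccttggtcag
Within these windows Fdps carried CCAAT in both orientations, Mvd carried 1 of each box, Cyp51 carried 1 GGGCGG and Tm7sf2 1 CCAAT. The full promoters of these 4 enzymes held further sites outside the windows, among them 1 GGGCGG in Fdps and 1 in Tm7sf2. The Abca1 window held neither, as the GGGCGG of its promoter lies outside the window, and the Npc1 window held GGGCGG at 2 places.

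None of the 4 sterol sensors and regulators passed the test in ASC. Srebf2, which encodes the transcription factor of the pathway, had 329 and 432 normalized counts in ASC_HFS, against 429.8 and 238 in ASC_C, and Scap, its escort, had 329 and 265 normalized counts in ASC_HFS, against 229 and 411 in ASC_C. The groups overlapped for both (adjusted p = 0.678 and 0.922), and their log2 differences of 0.19 and -0.05 were below their standard errors of 0.29 and 0.28. Insig1 (ENSRNOG00000006859), which retains SCAP and is itself a target of Srebf2, had 2518 and 2781 normalized counts in ASC_HFS, against 971 and 1983 in ASC_C. Both HFS values lay above both C values, but the C libraries were wide apart and the test was not passed (log2 difference 0.89 ± 0.36 SE, adjusted p = 0.0963), whereas limma-voom gave adjusted p = 0.0315. Insig2, its relative, had 20.0 and 10.9 normalized counts in ASC_HFS, against 42.6 and 31.4 in ASC_C, so its values pointed the other way (adjusted p = 0.138). The second HFS value of Insig2 rests on 3 reads.

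Of the 2 genes of uptake and transport, 1 rose and 1 was not called. Npc1 (ENSRNOG00000012016), the membrane protein that passes cholesterol out of lysosomes after lipoprotein uptake, had 406 and 421 normalized counts in ASC_HFS, against 104 and 232 in ASC_C. It rose 2.46-fold (log2 difference 1.11 ± 0.29 SE, adjusted p = 0.0169), and the HFS pair agreed closely while the C pair spread. Stard4, a soluble protein that carries sterol between membranes, had 37.4 and 10.9 normalized counts in ASC_HFS, against 50.0 and 65.0 in ASC_C, lower in HFS without overlap but not called (adjusted p = 0.0940).

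Of the 4 LXR and efflux members, the 2 pumps rose and the 2 receptors did not pass the test. Abca1 (ENSRNOG00000018126), which loads cholesterol onto apolipoprotein A-I, had 397 and 515 normalized counts in ASC_HFS, against 84.3 and 80.2 in ASC_C. That was a 5.54-fold increase (log2 difference 1.85 ± 0.24 SE, adjusted p = 0.000278), the highest fold of the 3 members that rose. Abcg1 (ENSRNOG00000001158), which exports cholesterol to mature high-density lipoprotein, had 364 and 341 normalized counts in ASC_HFS, against 120.4 and 212 in ASC_C, a 2.12-fold increase (log2 difference 0.89 ± 0.26 SE, adjusted p = 0.0307). Nr1h3, LXR alpha, had 163 and 119.7 normalized counts in ASC_HFS, against 103 and 146 in ASC_C, and Nr1h2, LXR beta, had 273 and 352 normalized counts in ASC_HFS, against 294 and 218 in ASC_C. Both receptors overlapped between diets (adjusted p = 0.745 and 0.555). Both HFS libraries lay above both C libraries for 28.5% of all genes.

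Set side by side, the summed enzymes were lower and the summed pumps higher in precursors of HFS rats. The 18 enzymes summed to 629 and 512 CPM in ASC_HFS, against 2822 and 2264 in ASC_C, counted over the genes in both tables, while Abca1 and Abcg1 summed to 209 and 238 CPM in ASC_HFS, against 66.2 and 89.5 in ASC_C. The enzymes exceeded the 2 pumps 3.01-fold and 2.15-fold in the ASC_HFS libraries, against 42.6-fold and 25.3-fold in the ASC_C libraries. These sums are descriptions of the libraries and were not tested.

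Several lists of markers of other cell types and of dividing cells also differed between diets in ASC, and some lists went both ways. Of the 17 measured macrophage and myeloid markers, 12 rose in ASC_HFS and none fell, and they summed to 7581 and 8201 CPM in ASC_HFS, against 1795 and 2069 in ASC_C, with no marker at 0. Of 9 endothelial markers 7 rose (sums 1271 and 1282 CPM in ASC_HFS, against 302 and 630.2 in ASC_C), and all 5 epithelial markers rose (sums 245 and 248 CPM in ASC_HFS, against 41.6 and 62.0 in ASC_C). Of 10 adipocyte markers 5 rose, and ASC_C replicate 2 was close to the HFS libraries in their sum. Of 10 proliferation markers 9 fell by limma-trend (8 by limma-voom). The other, Pcna, went the other way, 1.65-fold higher without overlap but not called (log2 difference 0.68, limma-trend adjusted p = 0.107). The median ratio of HFS to C means over the 10 was 0.146. Their sums, which include Pcna, were 277 and 261 CPM in ASC_HFS, against 529 and 456 in ASC_C. Cdk1 and Ccnb1 had no reads in ASC_HFS replicate 2. Of 6 pericyte and smooth muscle markers 2 fell and 1 rose (sums 209 and 150.2 CPM in ASC_HFS, against 508 and 406 in ASC_C), with no Cnn1 reads in ASC_HFS replicate 2, and of 11 progenitor markers 3 fell and 2 rose. Lymphoid markers had 4 of 8 measured and 0 called (2 at an unadjusted p under 0.05, and 2 by limma-voom). The part of these markers in the results for the cholesterol genes was not tested.

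**Figure D2:**
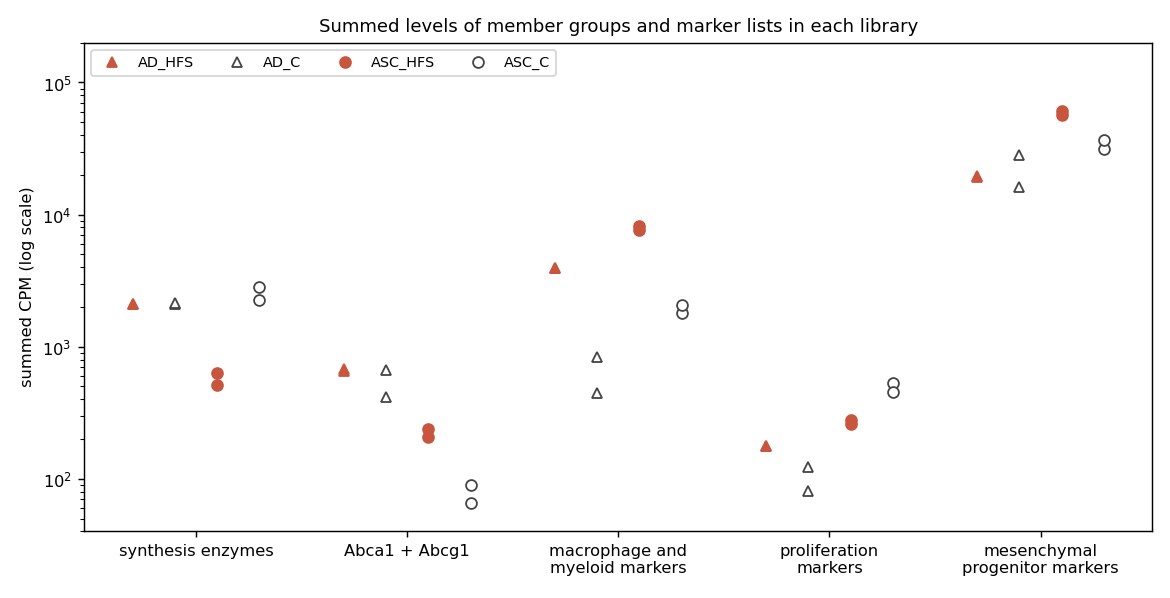
Summed CPM, on a log axis, of the 18 synthesis enzymes, of Abca1 with Abcg1 and of 3 marker lists, in each library, with triangles for AD, circles for ASC, filled for HFS and open for C. The enzyme sums of ASC_HFS lie below those of the other 3 groups, and the macrophage sums of both HFS groups lie above those of their C groups.

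In adipocytes no member passed, by limma-trend or by limma-voom, and at an unadjusted p under 0.05 Abca1 and Insig1 were higher and Idi1 was lower. Over the table, 1.31% of 18236 genes rose and 0.0329% fell, by limma-voom 0.806% rose and 0.0165% fell, and 9.59% and 4.34% were higher and lower at the unadjusted level. The median log2 difference was -0.02 over synthesis and uptake members and 0.20 over LXR and efflux members, against -0.01 over all genes. The enzymes ran from -0.57 for Tm7sf2 to 0.39 for Nsdhl, with standard errors from 0.09 to 0.32. A missed threshold here does not show that the groups were alike.

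Fdps had 36767 and 34675 normalized counts in AD_HFS, against 26068 and 36667 in AD_C, and Mvd had 5668 and 5369.7 normalized counts in AD_HFS, against 6447 and 5033 in AD_C, so that the groups overlapped for both. Cyp51 had 26795 and 28171 normalized counts in AD_HFS, against 35346 and 27348 in AD_C, again with overlap. Tm7sf2 had 4409 and 4223 normalized counts in AD_HFS, against 9106 and 4663 in AD_C, where AD_C replicate 2 was close to the HFS pair and replicate 1 was far above it. Msmo1 had 5337 and 5654 normalized counts in AD_HFS, against 8193 and 4263 in AD_C, with both HFS values between the C values. Idi1 had 6517 and 7539 normalized counts in AD_HFS, against 8363 and 9296 in AD_C, lower in both HFS libraries (log2 difference -0.32 ± 0.12 SE, adjusted p = 0.338).

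Values of 6 further enzymes of AD follow. Nsdhl had 13275 and 13504 normalized counts in AD_HFS, against 8317 and 12492 in AD_C, above both C values and the highest log2 difference of the enzymes (log2 difference 0.39 ± 0.20 SE, adjusted p = 0.494). Fdft1 had 8964 and 8682 normalized counts in AD_HFS, against 7729.7 and 7430.0 in AD_C (adjusted p = 0.388), and Acat2 had 11498 and 11572 normalized counts in AD_HFS, against 11287 and 9910.1 in AD_C (adjusted p = 0.661). Sqle had 11341 and 11654 normalized counts in AD_HFS, against 8518 and 10902 in AD_C, and Hmgcs1, at the head of the mevalonate arm, had 16586 and 18053 normalized counts in AD_HFS, against 17018 and 21800.3 in AD_C. Dhcr7, the enzyme of the last step, had 18001 and 17733 normalized counts in AD_HFS, against 16433 and 21097 in AD_C. None of these differences passed, and the adjusted p of the last 3 were 0.522, 0.707 and 0.897.

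The pumps and regulators of AD showed small differences. Abca1 had 15107 and 14851 normalized counts in AD_HFS, against 10496 and 10539 in AD_C, 1.42-fold higher with tight pairs in both groups (log2 difference 0.50 ± 0.09 SE, adjusted p = 0.0853). Insig1 had 160729 and 165667 normalized counts in AD_HFS, against 126098 and 132279 in AD_C, 1.26-fold higher (adjusted p = 0.353), and Stard4 had 2305 and 2415 normalized counts in AD_HFS, against 1865 and 2019 in AD_C (adjusted p = 0.381). For these 3 genes both HFS libraries lay above both C libraries, as they did for 8 of the 28 members and 24.2% of all genes, while 3 members and 23.5% lay below. Abcg1 had 51079 and 49010.4 normalized counts in AD_HFS, against 29316 and 53145 in AD_C, where the HFS values fell within the C range. Npc1 had 4314 and 4106 normalized counts in AD_HFS, against 4602 and 2923 in AD_C, with the same kind of overlap. Srebf2, Scap, Insig2, Nr1h2 and Nr1h3 had log2 differences between -0.17 and 0.06.

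The 2 AD_C libraries differed from each other more than the 2 AD_HFS libraries did. The larger value was a median of 1.04 times the smaller over the 28 members in AD_HFS and 1.27 times in AD_C, with a highest ratio of 1.16 in AD_HFS and 1.95 in AD_C. Without AD_C replicate 1 limma-trend called 8 members higher and 3 lower, and without AD_C replicate 2 it called 10 higher and 9 lower, with 1 control library left that is assumed to vary like the HFS pair. Of all genes 20.7% were then higher and 18.3% lower without AD_C replicate 1, and 27.5% and 26.4% without AD_C replicate 2, so the share of members called was not far from that of all genes. Without either AD_HFS library it called 0, with 0 at an unadjusted p under 0.05 and 0 by limma-voom. Macrophage markers also differed here, with 11 of 17 called higher by limma-trend, 6 by limma-voom, and none lower by either. With all AD libraries, 1.31% of all genes were called higher by limma-trend and 0.806% by limma-voom. The macrophage markers summed to 3926 and 3927 CPM in AD_HFS, against 444 and 837 in AD_C. All 10 proliferation markers were higher in both HFS libraries though 0 were called (8 at an unadjusted p under 0.05, 0 by limma-voom). The proliferation markers summed to 177 and 177 CPM in AD_HFS, against 80.6 and 123 in AD_C. All 6 pericyte and smooth muscle markers had positive log2 differences and 4 had no overlap, with 0 called (2 at an unadjusted p under 0.05, 0 by limma-voom) and sums of 666 and 661 CPM in AD_HFS, against 399.8 and 212 in AD_C. Of 9 endothelial markers 1, Tie1, rose and 5 were higher at an unadjusted p under 0.05 (0 called by limma-voom), with sums of 421 and 411 CPM in AD_HFS, against 326 and 444 in AD_C. None of the adipocyte, progenitor, epithelial and lymphoid markers was called by limma-trend or by limma-voom, and at an unadjusted p under 0.05 1 adipocyte marker was higher and 1 progenitor marker was higher and 3 were lower. The part of these markers was not tested.

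The difference of the diet differences was tested directly in 1 limma-trend fit of all 8 libraries over the 14018 shared genes. Of the 28 members, 13 passed, 12 enzymes whose difference in AD lay above that in ASC and Abca1, whose difference in AD lay below it. Of all shared genes 12.5% passed, 7.53% in the first direction and 4.93% in the second. Fdps had the largest value of the 13, by 2.44 ± 0.34 SE (adjusted p = 0.00426), from a log2 difference of 0.21 in AD against -2.24 in ASC. Mvd differed by 2.02 ± 0.24 (adjusted p = 0.00274) and Cyp51 by 1.81 ± 0.28 (adjusted p = 0.00655). For Abca1 the log2 difference was 0.50 in AD against 1.85 in ASC, a change of -1.35 ± 0.24 (adjusted p = 0.00976).

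Lss, Sqle, Tm7sf2 and Msmo1 did not pass this test (adjusted p = 0.0916, 0.0763, 0.0700 and 0.148), nor did Abcg1 and Npc1 (0.393 and 0.151), so their diet differences are not shown to differ between precursors and adipocytes. The tables were normalized separately and compress low counts to different degrees. On recovered reads scaled together limma-voom called 12 members, all among the 13, leaving out Dhcr7 (adjusted p = 0.0848), beside 9.31% of shared genes. The count of 13 fell to 7 without ASC_HFS replicate 2, to 7 without ASC_C replicate 1, and to 6 without AD_HFS replicate 1 or replicate 2, and with limma-voom it ran from 0 without ASC_HFS replicate 1 to 15 without AD_C replicate 2.

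**Figure D3:**
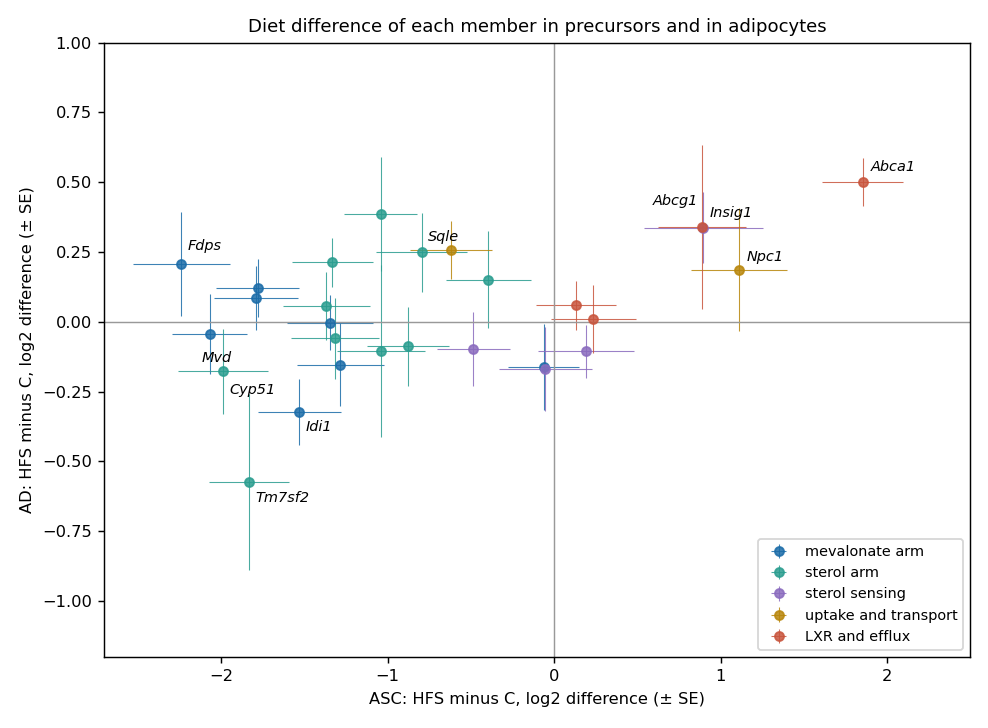
HFS minus C log2 difference of each member in ASC on the horizontal axis and in AD on the vertical axis, with standard errors from limma-trend and colours for the roles. The enzymes spread from -2.24 to -0.06 along the ASC axis and from -0.57 to 0.39 along the AD axis, and Abca1 lies at the upper right.

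The levels in the 4 groups, as CPM, show which group stood apart. These levels were set across separately normalized tables and were not tested. Fdps had 378 and 358 CPM in AD_HFS, 271 and 382 in AD_C, 118 and 76.6 in ASC_HFS, and 624 and 560.5 in ASC_C. Mvd had 58.3 and 55.4 CPM in AD_HFS, 67.0 and 52.4 in AD_C, 12.8 and 12.1 in ASC_HFS, and 122 and 110.0 in ASC_C. Both were lowest in ASC_HFS and highest in ASC_C, with the AD groups between them and overlapping.

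Cyp51 had 276 and 291 CPM in AD_HFS, 368 and 285 in AD_C, 79.2 and 66.5 in ASC_HFS, and 437 and 347 in ASC_C, where AD_C replicate 1 fell between the ASC_C libraries, so those neighbours in the order do not separate. Tm7sf2 had 45.3 and 43.6 CPM in AD_HFS, 94.7 and 48.6 in AD_C, 7.70 and 5.04 in ASC_HFS, and 83.9 and 51.3 in ASC_C, with ASC_HFS alone at the bottom and AD_C spread over the range of ASC_C. AD_HFS exceeded ASC_HFS for 17 of the 18 enzymes, with a median ratio of 3.82 over all 18. AD_C exceeded ASC_C for 7 of the 18, with a median ratio of 0.850 over all 18. The ratio of AD_HFS to ASC_HFS ran from 0.961 for Msmo1 to 24.6 for Dhcr7. Dhcr7, Nsdhl and Lss were above ASC_C in AD_C too, at ratios of 4.14, 2.73 and 2.41. Summed over the enzymes, AD_HFS had 2093 and 2106 CPM and AD_C had 2123 and 2158.

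The efflux side had another order. Abca1 had 155 and 153 CPM in AD_HFS, 109 and 109.8 in AD_C, 109 and 143 in ASC_HFS, and 27.3 and 24.6 in ASC_C, so ASC_C alone was low. Abcg1 had 525 and 506 CPM in AD_HFS, 305 and 554 in AD_C, 99.7 and 94.8 in ASC_HFS, and 38.9 and 64.9 in ASC_C, higher in both AD groups than in both ASC groups, and its mean was 5.30 times higher in AD_HFS than in ASC_HFS and 8.27 times higher in AD_C than in ASC_C. Npc1 had 44.4 and 42.4 CPM in AD_HFS, 47.9 and 30.4 in AD_C, 111 and 117 in ASC_HFS, and 33.5 and 71.1 in ASC_C, highest in ASC_HFS, with the other groups overlapping. Insig1 had 1653 and 1709 CPM in AD_HFS, 1311 and 1378 in AD_C, 691 and 773 in ASC_HFS, and 314 and 607 in ASC_C, higher in each AD group than in either ASC group. Nr1h3 was also higher in AD, at means of 102 in AD_HFS and 98.7 in AD_C, against 39.0 in ASC_HFS and 38.9 in ASC_C. Srebf2, Scap and Nr1h2 stayed between 67.5 and 106 in all 4 group means.

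**Figure D4:**
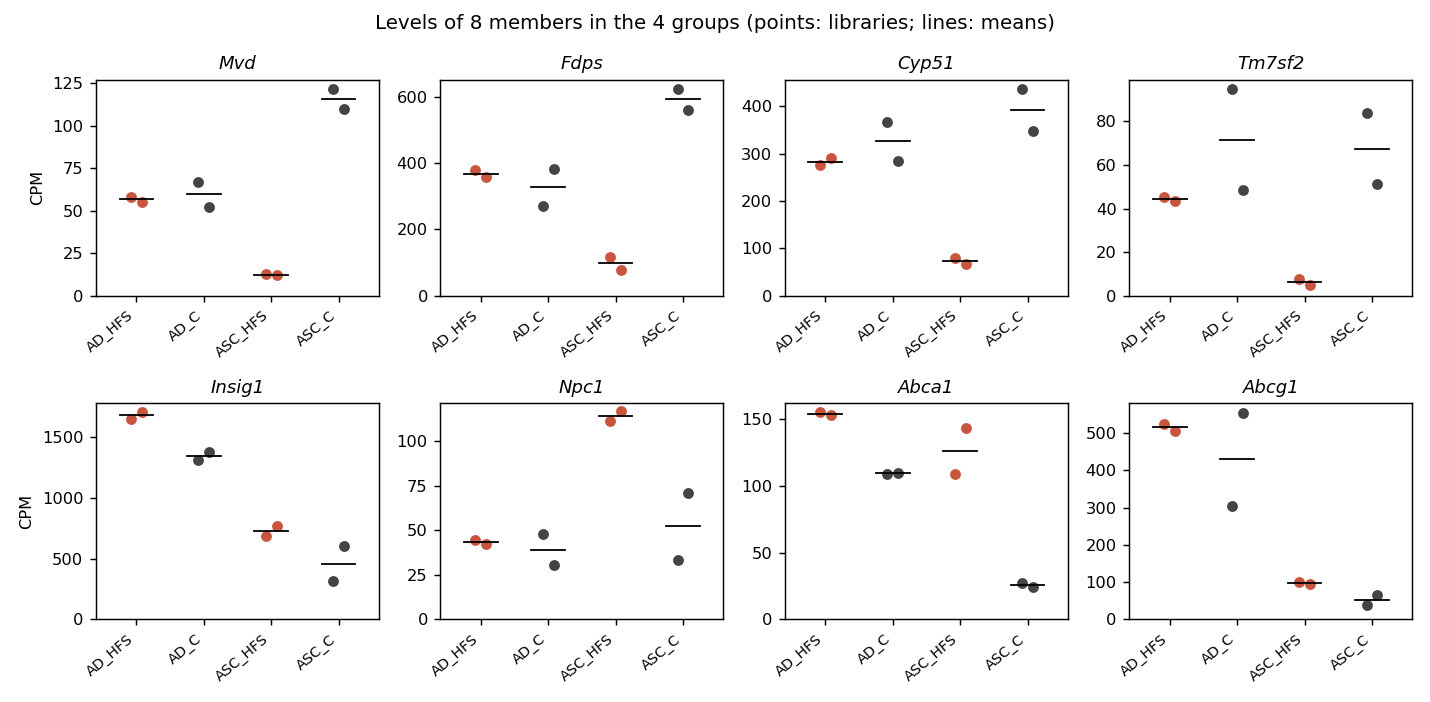
CPM of 8 members in the 4 groups, with 1 point per library and a line at the mean. Mvd, Fdps, Cyp51 and Tm7sf2 are lowest in ASC_HFS, Abca1 is lowest in ASC_C, Npc1 is highest in ASC_HFS, and Insig1 and Abcg1 are higher in both AD groups.

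Other genes that handle cholesterol or share its regulators were taken from a list of 50, of which 47 were measured in ASC, where 7 fell (14.9%, beside 9.70% of all genes) and 4 rose (8.51%, beside 9.41%). These shares were near those of all genes, and the genes below are given as single results. Gramd1b, which moves sterol from the plasma membrane to the endoplasmic reticulum, had 78.6 and 102 normalized counts in ASC_HFS, against 16.7 and 10.8 in ASC_C, a 6.57-fold increase (adjusted p = 0.00224). Mylip, an LXR target whose ubiquitin ligase degrades the lipoprotein receptor, rose 2.94-fold with 306 and 519 normalized counts in ASC_HFS, against 148 and 133 in ASC_C. Scarb1, a receptor for high-density lipoprotein, rose 2.40-fold with 344 and 377 normalized counts in ASC_HFS, against 146 and 154 in ASC_C. Apoe, an apolipoprotein of macrophages and adipocytes, had 42187 and 36303 normalized counts in ASC_HFS, against 6131 and 20848 in ASC_C (adjusted p = 0.0356). All 4 were higher in both HFS libraries, and the Apoe values of the C libraries were far apart.

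Among those that fell, Acss2, which makes acetyl-CoA from acetate, had 90.4 and 65.3 normalized counts in ASC_HFS, against 278 and 188 in ASC_C (adjusted p = 0.00861), and Fads2, a fatty acid desaturase, had 54.9 and 39.9 normalized counts in ASC_HFS, against 144 and 108 in ASC_C (adjusted p = 0.0208). Acly, which makes cytosolic acetyl-CoA from citrate, had 562 and 417 normalized counts in ASC_HFS, against 889 and 944 in ASC_C and fell 1.87-fold. Fads1, Dhdds, which starts dolichol synthesis from farnesyl diphosphate, and Mbtps2, the protease that releases the Srebf2 product, also fell, with log2 differences of -0.81, -0.80 and -0.78. Mbtps2 had 7.48 and 3.63 normalized counts in ASC_HFS, against 27.8 and 39.0 in ASC_C, with HFS values from 12 and 1 reads. In AD 0 of the 49 measured genes of this list passed (5 higher and 2 lower at an unadjusted p under 0.05, or 10.2% and 4.08% beside 9.59% and 4.34% of all genes, and 0 by limma-voom). The median log2 difference of the list was -0.22 in ASC and 0.07 in AD.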

How the data were processed

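RNA-seq libraries of 50 bp paired-end reads were processed with FastQC, STAR, featureCounts and DESeq2 on mRatBN7.2 and rn7, per the submitters' processing notes, with versions and settings not given in the sources used here. The authors deposited 1 table of 4 libraries for ASC and 1 for AD. The deposited values are a signal, the base-2 antilog of a variance-stabilizing transformation of gene counts, brought to a common depth inside each table. Inverting that transformation, as (value - lowest)² / value, turned 100.0% of values into whole reads (within 1e-06). The recovered reads gave depths, normalized counts and CPM.

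HFS was tested against C within each table by limma-trend on log2(value + 1), two-sided, in limma 3.58.1 under R 4.3.3, with Benjamini-Hochberg adjustment over all genes. A mean value of at least 10 was required, which removed no gene, so every measured member was tested. All 28 members found are named. Of the other cholesterol genes those called are named, up to 8 per table by size, and Fads1, Dhdds and Mbtps2, beyond that number, were named after their values were seen; 1 called gene is not reported here. Promoters came from RefSeq, and figures were drawn with matplotlib 3.10.9 in Python 3.11.15. Fits were tested on simulated data. Members, lists and tests were chosen with earlier results of these data known. Alternatives were other pseudocounts, filters, scalings, blocks, fits and tests, thinning, and libraries left out. The replicate numbers are not linked by the labels and were not used as pairs.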

Additional observations from a re-analysis of the deposited data

Results flagged for a closer look

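The diet difference of 13 members differed between adipocytes and precursors by the test of that difference, limma-trend over all 8 libraries (adjusted p from 0.00274 to 0.0472). The log2 difference in AD less that in ASC was 2.44 for Fdps, 2.02 for Mvd, 1.90 for Acat2, 1.87 for Pmvk, 1.81 for Cyp51, 1.55 for Fdft1, 1.43 for Nsdhl, 1.42 for Ebp, 1.34 for Mvk, 1.26 for Dhcr7, 1.21 for Idi1 and 1.13 for Hmgcs1. It was -1.35 for Abca1, which was higher in both HFS libraries of both tables. In AD each of the 12 enzymes lay between -0.32 and 0.39 on the log2 scale, with adjusted p of at least 0.338.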

How the results depend on the processing

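The 15 members called lower and 3 called higher in ASC stayed at 15 to 17 lower and 3 or 4 higher under the other pseudocounts, filters, scalings, blocks and fits, except that limma-voom on libraries thinned to the shallowest gave 11 lower and 1 higher, with 401 lower and 561 higher over all genes. In AD 0 members were called under each of these. The interaction called 9 to 15 members. The ASC medians lay further from 0 on recovered reads, at -1.64 as log2 counts, -1.60 by limma-voom and -1.67 thinned for synthesis and uptake, and at 0.71, 0.69 and 0.79 for LXR and efflux, since the deposited scale compresses low counts. Quantile normalization gave 0.25 for LXR and efflux in AD. Against 238 higher and 6 lower genes in AD, 92 and 3 were called with upper quartile scaling, 403 and 20 with all 8 libraries in 1 fit, 110 and 2 on log2 recovered counts, 147 and 3 by limma-voom and 38 and 1 thinned. The cause was not tested.

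Leaving out 1 library at a time, by limma-trend or limma-voom, the members called ran from 0 to 17 lower and 0 to 4 higher in ASC, 0 to 9 lower and 0 to 10 higher in AD, and 0 to 15 for the interaction. All genes ran from 0 to 2008 lower and 0 to 1613 higher in ASC, and from 0 to 4812 and 0 to 5018 in AD. The medians ran from -1.90 to -0.98 and 0.50 to 1.04 in ASC and from -0.038 to 0.044 and 0.11 to 0.27 in AD, for synthesis with uptake and for LXR with efflux. In AD Mvd ran from -0.22 to 0.14, and Msmo1 from -0.58 to 0.37, positive without AD_C replicate 1 (0.35 by limma-trend) and negative without AD_C replicate 2.

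With the replicate number as a block, 16 members were lower and 3 higher in ASC, where Sqle was added, 0 were called in AD, and 14 in the interaction, where Tm7sf2 was added. The block changed no other call of a member, and called 599 higher and 62 lower genes in AD. Same-numbered libraries were not paired by their deviations (r = -0.12 in ASC and 0.00141 in AD). Crossed numbers, chosen after seeing the data as was leaving out libraries by limma-voom, gave 17 lower and 4 higher members in ASC, and 542 higher and 42 lower genes in AD.

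The 992618 reads of ASC_HFS replicate 2 limit what can be said of Mvk, Hsd17b7, Insig2 and Stard4, at 3 reads each there. Enzymes called lower were also thin in that library, with 5 reads for Ebp and for Tm7sf2, 6 for Dhcr7 and 9 for Nsdhl. Mvd had 12 reads there and Pmvk 14.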

Other observations

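Fatty acid synthesis shares acetyl-CoA and regulators with the sterol pathway, and of its genes Acss2, Acly, Fads1 and Fads2 fell in ASC (adjusted p = 0.00861, 0.0485, 0.0479 and 0.0208). Others, picked here after their values were seen, did not pass. Srebf1, the relative of Srebf2 that drives lipogenesis, had 155 and 159.6 normalized counts in ASC_HFS, against 177 and 165 in ASC_C (adjusted p = 0.829). Fasn, the fatty acid synthase, had 1153 and 1197 normalized counts in ASC_HFS, against 940.2 and 1186 in ASC_C (adjusted p = 0.765). Scd, a desaturase, had 1721 and 1063 normalized counts in ASC_HFS, against 989 and 3219 in ASC_C (adjusted p = 0.578). Lpcat3, an LXR target that remodels membrane phospholipids, had 189.6 and 170.4 normalized counts in ASC_HFS, against 411 and 254 in ASC_C, lower in both HFS libraries while Abca1 and Abcg1 were higher (adjusted p = 0.0881).

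In AD the lowest adjusted p among the other cholesterol genes was that of Lipa, the lysosomal lipase that frees cholesterol from its esters, with 6300.3 and 6747 normalized counts in AD_HFS, against 4714 and 4947 in AD_C (adjusted p = 0.153). Gramd1b, which rose in ASC, had 1703 and 1599 normalized counts in AD_HFS, against 847 and 1139 in AD_C (adjusted p = 0.182), and Fads1 had 26028 and 26351 normalized counts in AD_HFS, against 14648 and 19868 in AD_C (adjusted p = 0.217). These genes were also named after their values were seen. The adjusted p values are from limma-trend.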
